A study of Mus musculus with 9 samples.

Results

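The expression of 9 genes that make, break down or sense endocannabinoids was examined in the medial prefrontal cortex (mPFC) of mice after chronic restraint stress. The genes, chosen by symbol, were Cnr1, Faah, Mgll, Dagla, Daglb, Napepld, Naaa, Abhd6 and Abhd12, and all 9 were found among the 24532 genes listed for each mouse. RNA was sequenced from 9 male mice, labelled as C57BL/6 and 11 weeks old (C57BL/6J and a younger age in the study's methods), with 1 library per mouse and 3 mice in each group. The CT group was wild-type and unstressed, the WT_ST group was wild-type and restrained, and the KO_ST group was Fkbp5-/- and restrained in the same way. Restraint was applied for several hours a day over weeks, and the CT mice, like the others, had no food or water during those hours. All mice came from crosses of heterozygous parents, and the knockout line had been backcrossed to C57BL/6J. Unstressed knockout mice were not analysed here, so in KO_ST against CT the effects of genotype and of stress cannot be told apart.

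Endocannabinoids are lipids that neurons release on demand. They travel backwards across the synapse to the cannabinoid receptor CB1 on the presynaptic terminal, where they reduce transmitter release. The main ones in the brain are 2-arachidonoylglycerol, made by diacylglycerol lipases and broken down mostly by monoacylglycerol lipase, and anandamide, made from phospholipid precursors and broken down by fatty acid amide hydrolase. In the prefrontal cortex this signalling is known for dampening the response to stress. Fkbp5, the deleted gene, encodes a co-chaperone that lowers the sensitivity of the glucocorticoid receptor.

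Depth lay between 43778471 and 61150128 gene reads per library, and the 14370 genes with a mean of at least 30 reads were tested. All 9 endocannabinoid genes passed this filter. Levels are given as FPKM, the fragments of a transcript divided by its length and by the library's mapped reads, which scales for length and can therefore be compared between genes as well as between mice. Fkbp5 itself had FPKM values of 7.61, 6.46 and 7.28 in CT, 9.83, 9.47 and 10.3 in WT_ST and 3.59, 4.69 and 4.45 in KO_ST. The groups did not overlap, and the KO_ST mean of 4.24 was lower than the CT mean of 7.11 but far from 0. A value over the whole gene does not measure the deleted part, so it orders the groups and is no check of the deletion itself. Markers of cortical glutamatergic neurons (Slc17a7 and Neurod6) summed to an FPKM of 639 to 739 in the 9 mice. Markers of striatal neurons, a tissue next to the dissected region, were also present, at a sum of 59.6 to 100.4 over 7 genes. Ppp1r1b and Penk were the highest of them, at means of 30.3 and 22.9 in CT. Drd1, Drd2 and Adora2a were at 3.25, 0.705 and 0.746 there, so the sum is no measure of the amount of striatal tissue. Some lists varied widely between mice without following the groups, such as blood (a summed FPKM of 82.2 to 770) and oligodendrocytes (392 to 743), and in these as in the neuron lists no marker was at 0 in every mouse.

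The levels of the 9 genes differed widely and kept much the same order in every mouse. Abhd12 had the highest mean FPKM over the 9 mice, 165 ± 5.01 (SD, n = 9), followed by Mgll at 63.1 ± 17.4. Cnr1 at 36.7 ± 3.51, Faah at 35.7 ± 1.12 and Dagla at 31.4 ± 2.08 came next, and their ranges over the mice overlapped from each gene to the next. Below them stood Abhd6 at 22.0 ± 1.40, Daglb at 16.2 ± 0.344, Naaa at 11.5 ± 2.36 and Napepld at 5.58 ± 0.397, and each of these was below the gene before it in 9 of 9 mice. The range of Mgll overlapped that of Cnr1 because of 2 mice, and Mgll was the higher gene in the other 7. Thus the transcript of a lipase of 2-arachidonoylglycerol led the list, and that of the enzyme that makes anandamide closed it.

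**Figure D1:**
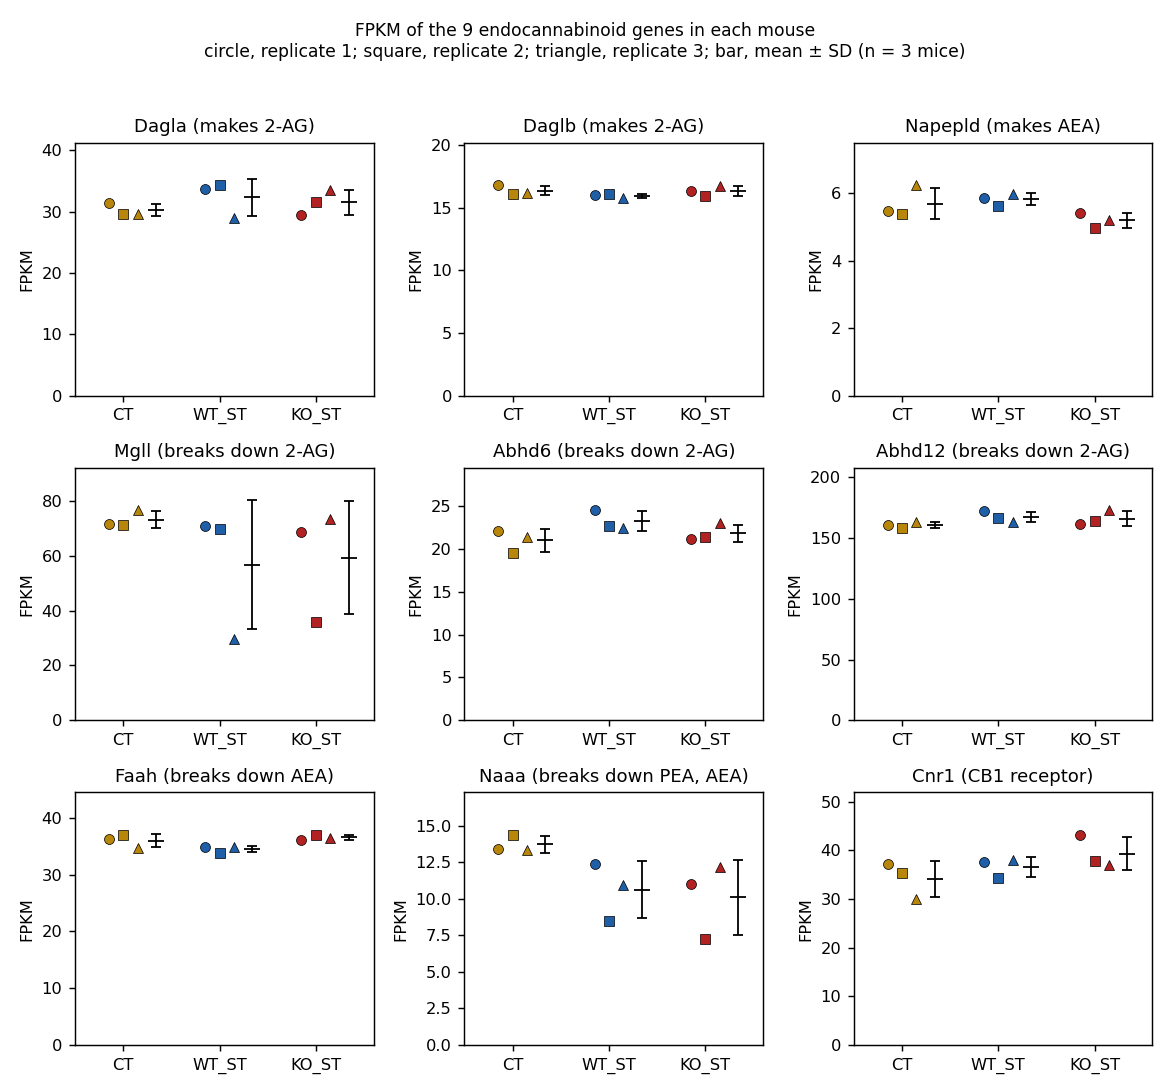
FPKM (vertical axes, from 0) of the 9 genes in each mouse, with the groups on the horizontal axes, 1 point per mouse and the mean with its SD (n = 3) beside each group. Most panels are flat, while Mgll has 1 mouse at 29.8 in WT_ST and 1 at 35.7 in KO_ST, and all Naaa points of the stressed groups lie below those of CT.

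The genes also differed in their spread between mice. The coefficient of variation of FPKM over the 9 mice was 2.12% for Daglb, 3.04% for Abhd12 and 3.14% for Faah, against a median of 8.42% over the tested genes. Only 0.362% of the tested genes varied less than Daglb. Abhd6, Dagla, Napepld and Cnr1 lay between 6.38% and 9.56%. Naaa reached 20.5% and Mgll 27.6%, which 91.9% of the tested genes did not exceed. Each gene was covered by at least 824 reads in every mouse. With reads taken as independent, the Poisson SD from counting was at most 3.48% of a value. The libraries are paired-end, so this SD is larger where both reads of a pair were counted.

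The enzymes that make the lipids showed no called difference between groups. A gene was called where the unadjusted p of limma was under 0.05 and the fold change above 1.2, and Benjamini-Hochberg adjusted p-values over the 14370 tested genes are given beside it. Dagla (chr19:10245265-10304877, minus strand, GRCm38) encodes the diacylglycerol lipase that supplies 2-arachidonoylglycerol at synapses. Its FPKM was 31.4, 29.7 and 29.6 in CT, 33.8, 34.3 and 28.9 in WT_ST and 29.4, 31.6 and 33.5 in KO_ST, with overlapping groups. On the log2 scale Dagla differed from CT by 0.09 in WT_ST (95% confidence interval -0.08 to 0.25) and by 0.07 in KO_ST (-0.07 to 0.20). Daglb (chr5:143464484-143504442, plus strand) encodes the related lipase that is better known from immune cells. Its FPKM was 16.8, 16.1 and 16.1 in CT, 16.0, 16.1 and 15.7 in WT_ST and 16.3, 16.0 and 16.7 in KO_ST. In FPKM the WT_ST mice lay just below the CT mice, by a margin of 0.205%, but after quantile normalization the groups overlapped. The log2 difference was -0.03 (standard error 0.0455, adjusted p = 0.878 from limma). In the GENCODE annotation 2309 of 9567 exonic bases of Daglb over all its transcripts, 24.1%, are shared with exons of Rac1 on the opposite strand. The deposited value lists 1 transcript, and the length implied by its reads and FPKM was 3.31 to 3.33 kb. The overlap of Rac1 with that transcript was not measured. Whether the counting used strand is not given in the sources used here, so reads of Rac1 in the value of Daglb cannot be told apart.

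Napepld (chr5:21662901-21701622, minus strand) encodes the phospholipase D that releases anandamide and related N-acylethanolamines. It had the lowest level, at an FPKM of 5.48, 5.38 and 6.24 in CT, 5.88, 5.62 and 5.98 in WT_ST and 5.41, 4.98 and 5.21 in KO_ST. All KO_ST mice lay below all WT_ST mice, and both ranges overlapped that of CT. The log2 difference in KO_ST against WT_ST was -0.13 (95% confidence interval -0.27 to 0.01, adjusted p = 0.869 from limma). The unadjusted p was under 0.05 with edgeR and above it with limma and DESeq2.

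Among the 3 hydrolases of 2-arachidonoylglycerol, Abhd12 and Abhd6 were steady and Mgll was not. Abhd12 (chr2:150832493-150904779, minus strand), which also cleaves lysophosphatidylserine, had an FPKM of 161, 158 and 163 in CT, 172, 166 and 163 in WT_ST and 161, 164 and 173 in KO_ST. The lowest WT_ST mouse lay 0.143% above the highest CT mouse, and the log2 difference was 0.06 (standard error 0.0333, adjusted p = 0.702 from limma). Abhd6 (chr14:8002888-8056773, plus strand) encodes a hydrolase at the postsynaptic side. Its FPKM was 22.0, 19.5 and 21.4 in CT, 24.5, 22.7 and 22.5 in WT_ST and 21.2, 21.3 and 23.0 in KO_ST. The WT_ST mice lay above the CT mice without overlap, and the KO_ST mice overlapped both groups. In WT_ST against CT the fold was 1.11 (log2 0.15, standard error 0.0575, 95% confidence interval 0.0098 to 0.28, adjusted p = 0.635 from limma). The unadjusted p of limma was under 0.05 but the fold was under the threshold, so Abhd6 was not called. That p was above 0.05 with edgeR, DESeq2, no quantile normalization or the unmoderated test, and in 5 of the 6 fits that left out 1 mouse. Its log2 difference in KO_ST against WT_ST was -0.08 (95% confidence interval -0.20 to 0.04), so a difference between the stressed groups was not detectable at this spread.

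Mgll (chr6:88724412-88828360, plus strand) encodes monoacylglycerol lipase, the main enzyme that ends signalling by 2-arachidonoylglycerol. Its FPKM was 71.6, 71.3 and 76.8 in CT, 71.0, 69.7 and 29.8 in WT_ST and 68.8, 35.7 and 73.6 in KO_ST. Thus 7 mice lay between 68.8 and 76.8, and WT_ST replicate 3 and KO_ST replicate 2 lay far below them. Because each stressed group held 1 such mouse, the SD of Mgll was 3.07 in CT, 23.4 in WT_ST and 20.6 in KO_ST. The fitted log2 difference was -0.48 in WT_ST against CT (95% confidence interval -1.18 to 0.23, adjusted p = 0.713 from limma) and -0.37 in KO_ST against CT (-0.95 to 0.20, adjusted p = 0.657 from limma). Without WT_ST replicate 3 the difference in WT_ST against CT was -0.08, and without KO_ST replicate 2 that in KO_ST against CT was -0.05. In KO_ST against WT_ST it was 0.10 (95% confidence interval -0.79 to 1.0). Without both of those mice, an alternative chosen after seeing the data, it was 0.03, and it turned to -0.29 without WT_ST replicate 3 alone.

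In WT_ST replicate 3 and KO_ST replicate 2 Mgll was low in reads as well as in FPKM. It was covered by 5237 and 6387 reads there, and by 11767 to 17160 in the other mice. The length implied by its reads and FPKM stayed between 3.91 and 3.96 kb over the 9 mice. Of the 14370 tested genes, 369 had these same 2 mice as their lowest. For 3 of them, Pak3, Mgll and Ccnd1, both mice lay more than 0.5 below all others on the quantile-normalized log2 scale. Over the 36 pairs of mice that can be formed, the number of genes with such a gap ranged from 0 to 9, with a median of 1.

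The genes most like Mgll over the mice shared the low values, which follows from how they were chosen. Its neighbours on the chromosome, taken by position, did not share them. Likeness was measured as the Pearson correlation of quantile-normalized log2 values over the 9 mice, and it rests mostly on the 2 low mice. Pak3, a kinase that acts on the actin cytoskeleton of neurons, came first with r = 0.97, and its FPKM was 4.64 and 4.81 in those mice against 11.4 to 13.7 in the others. Pex5, the receptor that imports proteins into peroxisomes, followed with r = 0.95, at 13.2 and 13.0 against 19.1 to 22.2. Hibch, an enzyme of valine breakdown, had r = 0.93, at 5.52 and 5.78 against 6.61 to 7.40. Ccnd1, a cyclin of the cell cycle named here after its values were seen, stood at 4.91 and 4.97 against 7.97 to 13.0. Of the 8 tested genes that start within 500 kb of Mgll, 5 had both mice inside the range of the other 7, 3 had 1 of them outside it, and 0 had both outside.

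**Figure D2:**
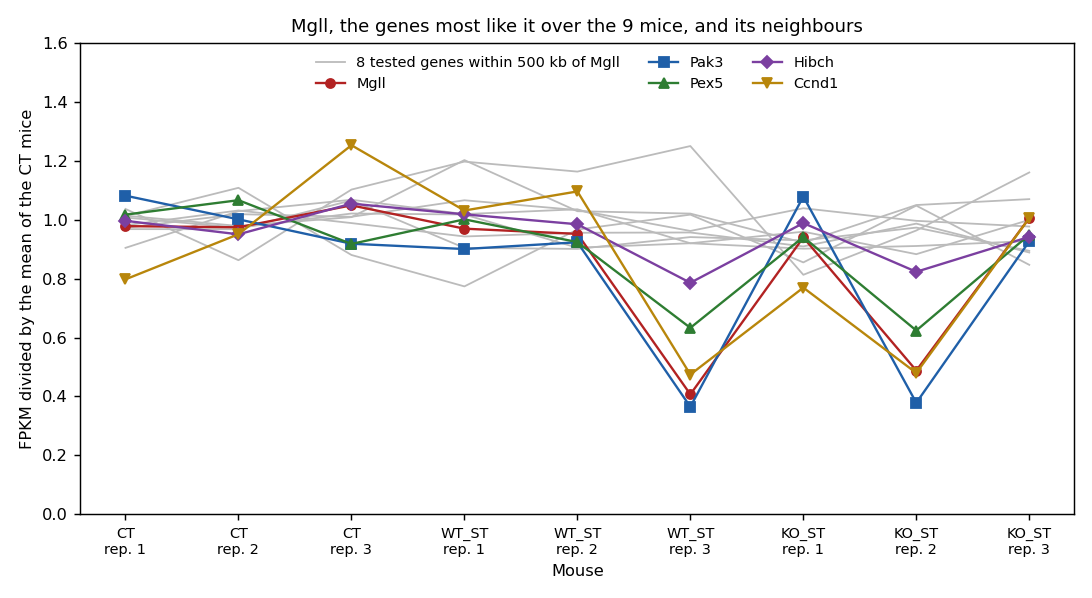
FPKM divided by the mean of the CT mice (vertical axis) in each of the 9 mice (horizontal axis) for Mgll, Pak3, Pex5, Hibch and Ccnd1 (coloured) and for the 8 tested genes within 500 kb of Mgll (grey). The coloured lines drop together in WT_ST replicate 3 and KO_ST replicate 2, where Mgll was at an FPKM of 29.8 and 35.7, and the grey lines do not. Pak3, Pex5 and Hibch were chosen for their likeness to Mgll and Ccnd1 for its low values in these mice. Their shared drop follows from that choice, while the grey genes were chosen by position.

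The sequence just before the start of Mgll is shown because this gene varied most. RefSeq (GRCm38.p6) was used for the sequences, and promoters were found for 7 of the 9 genes. The 250 bases before the first start of Mgll, at chr6:88724162-88724411 on the plus strand, hold 23 CpG dinucleotides against a median of 6 over promoters of the same length. In GENCODE all 250 bases lie within an exon of the antisense gene Gm26588 (chr6:88722942-88724501, minus strand). Capitals mark a match to the E-box CACGTG, which 6.02% of 32851 promoters hold on either strand.
Mgll: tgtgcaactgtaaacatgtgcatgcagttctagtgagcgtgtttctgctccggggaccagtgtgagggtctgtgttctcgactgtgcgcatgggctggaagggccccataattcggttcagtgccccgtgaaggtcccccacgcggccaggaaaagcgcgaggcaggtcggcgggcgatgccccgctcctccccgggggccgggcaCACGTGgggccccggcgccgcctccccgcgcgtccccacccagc

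The amide hydrolases differed from each other in how they varied. Faah (chr4:115996668-116018837, minus strand) encodes the main enzyme that breaks down anandamide. Its FPKM was 36.2, 36.9 and 34.7 in CT, 34.8, 33.9 and 34.9 in WT_ST and 36.1, 37.0 and 36.5 in KO_ST. The KO_ST mice lay above the WT_ST mice without overlap, and the CT mice overlapped both. The fold in KO_ST against WT_ST was 1.06 (log2 0.09, standard error 0.0369, 95% confidence interval 0.0027 to 0.18, adjusted p = 0.849 from limma). The unadjusted p of limma was under 0.05 but the fold was under the threshold, and Faah was not called. That p was above 0.05 with edgeR, DESeq2, no quantile normalization, all 9 mice in the fit or the replicate block, and in 5 of the 6 fits that left out 1 mouse. Against CT the log2 difference was -0.06 in WT_ST (95% confidence interval -0.17 to 0.04) and 0.03 in KO_ST (-0.08 to 0.14).

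Naaa was the only called gene of the 9, and it was lower in both stressed groups. Naaa (chr5:92257660-92278181, minus strand) encodes a lysosomal acid amidase that acts on palmitoylethanolamide and, less readily, on anandamide, and that is abundant in macrophages. Its FPKM was 13.4, 14.4 and 13.4 in CT, 12.4, 8.52 and 11.0 in WT_ST and 11.0, 7.23 and 12.2 in KO_ST. All 6 stressed mice lay below all 3 CT mice, and replicate 2 was the lowest in each stressed group. The mean was 13.7 ± 0.582 (SD, n = 3) in CT, 10.6 ± 1.97 in WT_ST and 10.1 ± 2.57 in KO_ST. Naaa was lower 1.27-fold in WT_ST against CT (log2 -0.35, standard error 0.124, 95% confidence interval -0.64 to -0.05, adjusted p = 0.635 from limma). It was lower 1.33-fold in KO_ST against CT (log2 -0.41, standard error 0.160, 95% confidence interval -0.79 to -0.03, adjusted p = 0.501 from limma). These comparisons share the CT mice. The stressed groups differed by -0.06 on the log2 scale (95% confidence interval -0.51 to 0.39).

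The calls of Naaa depended on single mice and on the test. In WT_ST against CT the log2 difference lay between -0.46 and -0.21 over 14 alternatives (adjusted p 0.373 to 0.915), and the call was lost in 5 of them. These were the unmoderated test, a fit of all 9 mice, and the fits without CT replicate 1 (log2 -0.36), CT replicate 2 (-0.31) or WT_ST replicate 2 (-0.21). In KO_ST against CT it lay between -0.54 and -0.21 (adjusted p 0.329 to 0.820), and the call was lost in 7 of 14. Those were the fit with no filter on low reads, the unmoderated test, the replicate block, and the fits without CT replicate 1 (log2 -0.42), 2 (-0.37) or 3 (-0.43) or KO_ST replicate 2 (-0.21). On the read counts Naaa was called in both comparisons with CT by edgeR (log2 -0.36 and -0.42) and by DESeq2 (-0.36 and -0.42).

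Markers of microglia, the macrophages of the brain, were lower in the same groups. Cx3cr1, P2ry12, Tmem119 and Csf1r, all 4 of the list, were called lower in WT_ST and in KO_ST against CT, by 1.201- to 1.39-fold and by 1.61- to 1.95-fold (adjusted p of 0.412 or more from limma). In these comparisons 2.47% and 3.56% of all tested genes were called. The number of the 4 markers called in WT_ST fell to 2 with the unmoderated test and to 0 with all 9 mice in the fit. In KO_ST it fell to 2 with no filter on low reads, DESeq2 or the unmoderated test and without CT replicate 1 or 3. At an adjusted p under 0.05 limma and edgeR passed 0 of the 4, and DESeq2 passed 2 in WT_ST and 1 in KO_ST. In KO_ST against WT_ST, where Naaa differed by -0.06 on the log2 scale, the 4 markers differed by -0.49 to -0.38 with overlapping groups, and P2ry12 was called lower by limma and DESeq2 but not by edgeR. There 4 were called without KO_ST replicate 3, and 0 without any other of the 6 mice, with no filter on low reads, the unmoderated test or the replicate block, or without both mice with low Mgll. Their summed FPKM was 71.5 to 86.2 in CT, 53.3 to 62.9 in WT_ST and 27.1 to 62.3 in KO_ST, with no marker at 0. WT_ST replicate 1 and KO_ST replicate 3 were the highest of their groups both for the sum and for Naaa. The lowest sums were those of WT_ST replicate 3 and KO_ST replicate 1, whereas Naaa was lowest in replicate 2 of each group. The sum of the endothelial markers Cldn5, Pecam1 and Flt1 also lay below CT without overlap, at an FPKM of 30.7 to 36.0 in CT, 24.5 to 29.7 in WT_ST and 22.5 to 28.3 in KO_ST. Flt1 alone overlapped CT in both groups, and Cldn5, a tight junction protein of brain vessels, was called lower in WT_ST (1.25-fold) and in KO_ST (1.31-fold). In bulk tissue, fewer cells of a type and less RNA per cell cannot be told apart, and the part of microglia or endothelium in the level of Naaa was not tested.

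**Figure D3:**
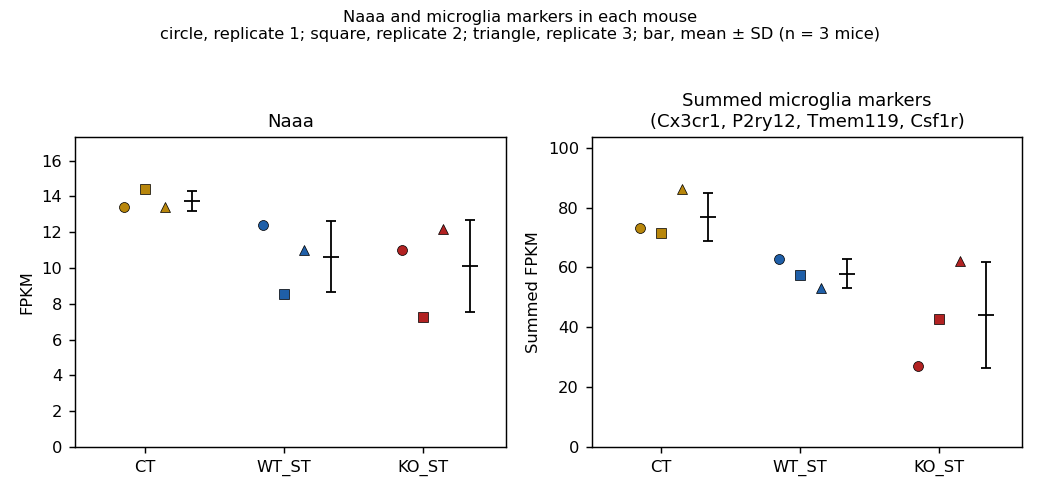
FPKM of Naaa (left) and the summed FPKM of 4 microglia markers (right) in each mouse by group, with the mean and SD (n = 3). In both panels every stressed mouse lies below the 3 CT mice; KO_ST replicate 2 is lowest for Naaa at 7.23 and KO_ST replicate 1 is lowest for the markers at 27.1.

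The sequence before the start of Naaa is shown because it was the gene called. The 250 bases at chr5:92278182-92278431, read on the minus strand, hold 10 CpG dinucleotides. Capitals mark a match to the GC box GGGCGG, here as its reverse complement, which 32.7% of 32851 promoters hold on either strand. The palindromic glucocorticoid response element in its full form was found in 0 of the 11 windows of the 7 genes with a promoter and in 3 of the 32851, which says only that these letters are not in the windows.
Naaa: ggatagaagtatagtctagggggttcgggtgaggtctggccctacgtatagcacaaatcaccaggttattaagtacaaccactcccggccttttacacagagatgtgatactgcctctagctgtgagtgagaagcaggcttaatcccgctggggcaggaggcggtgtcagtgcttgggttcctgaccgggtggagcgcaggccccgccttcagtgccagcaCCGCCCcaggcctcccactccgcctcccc

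The receptor gene Cnr1 (chr4:33923171-33948831, plus strand) encodes CB1, which in the cortex is richest on terminals of cholecystokinin interneurons. Its FPKM was 37.2, 35.3 and 30.05 in CT, 37.5, 34.3 and 38.0 in WT_ST and 43.2, 37.7 and 37.0 in KO_ST. CT replicate 3 was the lowest mouse and KO_ST replicate 1 the highest, and neighbouring groups overlapped. Cnr1 differed from CT by 0.10 in WT_ST (95% confidence interval -0.11 to 0.30) and by 0.20 in KO_ST (-0.02 to 0.42, adjusted p = 0.546 from limma) in log2 units. For KO_ST against CT the unadjusted p was above 0.05 with limma and edgeR, and under it with DESeq2 (log2 0.22), with all 9 mice in the limma fit and with the replicate block (log2 0.20 in both). Without CT replicate 3 the difference was 0.11, and without CT replicate 1 it was 0.263, with an unadjusted p under 0.05 and a fold just under the threshold. The summed FPKM of 4 markers of cholecystokinin interneurons was 478 to 541 in CT, 491 to 559 in WT_ST and 518 to 558 in KO_ST. Most of it was Cck itself, with a mean of 481 in CT, where Gad1 was at 79.7. The sum thus follows Cck and is no measure of these interneurons. Of the other markers Slc17a8 was called higher in WT_ST against CT (log2 0.38, at a mean FPKM of 0.978 against 0.568). The sum of the GABA neuron markers Gad1, Gad2 and Slc32a1 was 119.7 to 139 in CT, 141 to 152 in WT_ST and 146 to 149 in KO_ST, with no overlap against CT. None of these 3 was called by limma, while against CT all 3 had an unadjusted p under 0.05 in KO_ST (log2 0.17 to 0.25), as did Gad1 and Slc32a1 in WT_ST (log2 0.16 and 0.23). The sum of 7 striatal markers was 59.6 to 89.2 in CT, 77.6 to 100.4 in WT_ST and 74.6 to 94.5 in KO_ST, with 3 called higher in WT_ST and 2 in KO_ST against CT. Their part in the level of Cnr1 was not tested.

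Read over all 9 genes, the counts of calls were small. In WT_ST against CT 1 of 9 genes was called, against 2.47% of the tested genes. In KO_ST against CT it was again 1 of 9, against 3.56%. In KO_ST against WT_ST limma called 0 of 9, against 2%, and edgeR and DESeq2 also called 0. With the p alone, without the fold, 2, 1 and 1 of the 9 genes passed with limma in these comparisons (1, 1 and 1 with edgeR, and 1, 2 and 0 with DESeq2), where with limma 7.86%, 9.46% and 5.82% of the tested genes did. At an adjusted p under 0.05 limma passed 0 of the 9 genes in each comparison, as did edgeR and DESeq2, and 0.0348%, 0.0626% and 0.153% of the tested genes passed with limma. A moderated F test over the 3 groups gave 0 of 9 genes at p under 0.05, with Abhd6 (adjusted p = 0.582) and Naaa (adjusted p = 0.590 from limma) the nearest. It gave 9.13% of the tested genes at that threshold and 0.111% after adjustment. The F test on the counts gave 0 of the 9 with edgeR and 1, Naaa, with DESeq2.

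Groups that did not overlap in FPKM were more frequent than calls. In WT_ST against CT this held for 5 of the 9 genes, against 14% of the tested genes, with Mgll, Daglb and Naaa lower and Abhd6 and Abhd12 higher. For Mgll, Daglb and Abhd12 the groups were separated by 0.482%, 0.205% and 0.143% of the level, so the count rests in part on narrow gaps. It was made on FPKM, and on the quantile-normalized log2 scale of the tests Daglb overlapped (WT_ST replicate 2 at 4.095, CT replicate 3 at 4.083). The gaps of Naaa and Abhd6 were 7.30% and 1.92%. It held for 1 of 9 genes in KO_ST against CT, against 16.5%, and for 2 of 9, Faah and Napepld, in KO_ST against WT_ST, against 11.1%. The median log2 difference over the 9 genes was 0.05, 0.03 and -0.01 in these comparisons, beside 0.0034, 0.0024 and -0.0015 over all tested genes.

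**Figure D4:**
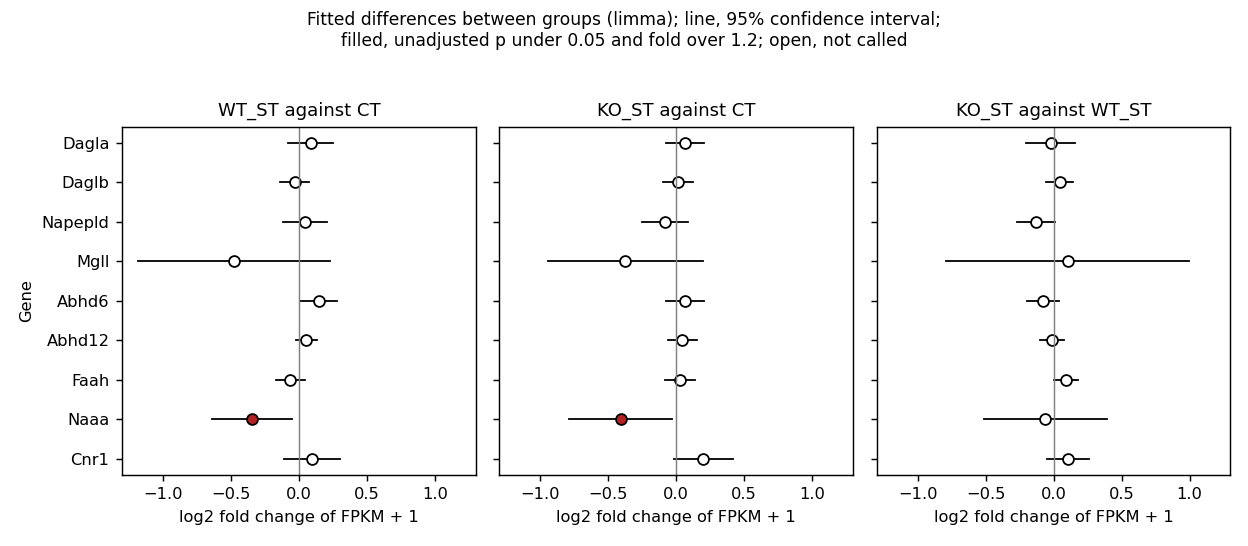
Fitted log2 fold change of FPKM + 1 (horizontal axes) for the 9 genes (vertical axis) in the 3 comparisons, with 95% confidence intervals and filled points for called genes. Naaa is filled at -0.35 and -0.41 against CT, and the interval of Mgll is the widest in each panel.

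The balance between the enzymes followed from these levels. As a share of the summed FPKM of Abhd12, Mgll and Abhd6, Mgll made up 28.1% to 29.4% in the CT mice. It made up 26.5%, 26.9% and 13.8% in WT_ST and 27.4%, 16.2% and 27.3% in KO_ST. In the 2 mice with little Mgll the share of Abhd12 was 75.8% and 74.1%, while its own FPKM of 163 and 164 was like that of the other mice. Dagla made up 64.3% to 68.1% of the summed FPKM of both diacylglycerol lipases over the 9 mice. The ratio of Faah to Naaa was 2.56 to 2.70 in CT, 2.81 to 3.98 in WT_ST and 3.001 to 5.12 in KO_ST, and no stressed mouse overlapped the CT mice. All of these are ratios of transcript levels, not of enzyme amounts or lipids.

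Other genes of the pathway were read from 4 lists with 33 genes in all, of which 25 were tested. Other receptors and the CB1 partner were led by Cnrip1, a protein that binds the tail of CB1, at an FPKM of 55.6 to 61.8. It differed by 0.03 in WT_ST and 0.04 in KO_ST against CT on the log2 scale, and none of the 3 tested genes of this list was called by limma at a p under 0.05. The CB2 receptor gene Cnr2 had 0 to 18 reads per mouse, and Gpr55, Gpr18, Gpr119 and Trpv1 were also too low to test. Other enzymes were led by Gde1, a phosphodiesterase of another route to anandamide, at 152 to 176, and it was not called in any comparison. In this list Ptgs2, the cyclooxygenase that can oxidise 2-arachidonoylglycerol, was the only gene called by limma. Its FPKM was 3.42, 2.36 and 2.83 in CT, 3.92, 3.30 and 3.64 in WT_ST and 3.15, 2.99 and 3.54 in KO_ST. Ptgs2 was higher 1.217-fold in WT_ST against CT (log2 0.28, standard error 0.113, adjusted p = 0.635 from limma) with overlapping groups. That call was lost without CT replicate 2 or 3 and without WT_ST replicate 1 or 3 (log2 0.20 to 0.28), and also with no quantile normalization, no filter on low reads or the unmoderated test. Pla2g4e, a cytosolic phospholipase that can form the precursor of anandamide, was higher in KO_ST than in WT_ST by edgeR and DESeq2, which called it (log2 0.29 and 0.30). Its FPKM was 3.52, 5.07 and 3.75 in CT, 3.21, 3.31 and 3.62 in WT_ST and 4.199, 4.14 and 3.99 in KO_ST. The stressed groups did not overlap, and limma gave a fold of 1.17, under the threshold, with an unadjusted p under 0.05 (log2 0.23, adjusted p = 0.696 from limma).

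The fatty acid binding proteins, which carry endocannabinoids through the cytoplasm to the enzymes that degrade them, held 2 called genes of 3, Fabp7 lower and Fabp5 higher against CT. Of all tested genes 2.47% were called in WT_ST and 3.56% in KO_ST against CT. Fabp7, the form of radial glia and astrocytes, stood at an FPKM of 21.9, 27.8 and 24.5 in CT, 18.6, 16.5 and 14.9 in WT_ST and 15.5, 13.4 and 17.3 in KO_ST. All stressed mice lay below the CT mice. It was lower 1.46-fold in WT_ST (log2 -0.54, standard error 0.105, adjusted p = 0.542 from limma) and 1.55-fold in KO_ST (log2 -0.63, standard error 0.110, adjusted p = 0.254 from limma), each against CT. Its call was kept under every alternative run, and DESeq2 gave an adjusted p of 0.011 and 0.00090. The summed FPKM of 4 astrocyte markers was 177 to 204 in CT, 161 to 165 in WT_ST and 154 to 193 in KO_ST, and their part in the level of Fabp7 was not tested. Of these, Aqp4 and Slc1a3 were called lower in WT_ST against CT (log2 -0.59 and -0.30), Gfap and Aldh1l1 had differences of 0.21 and 0.16 and were not called, and in KO_ST against CT limma called 0 and passed 1 at a p under 0.05.

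Fabp5 stood at 58.2, 50.2 and 81.3 in CT, 90.4, 74.1 and 82.4 in WT_ST and 90.6, 82.9 and 72.5 in KO_ST. CT replicate 3 lay among the stressed mice and the other CT mice below them. Fabp5 was higher 1.31-fold in WT_ST (log2 0.39, standard error 0.160, adjusted p = 0.635 from limma) and 1.32-fold in KO_ST (log2 0.40, standard error 0.166, adjusted p = 0.523 from limma). The call in WT_ST was lost without CT replicate 1 or 2 or WT_ST replicate 1 or 3, and that in KO_ST without CT replicate 1 or 2 or KO_ST replicate 1 or 2 (log2 0.25 to 0.38 over these fits). Both calls were also lost with no filter, edgeR or the unmoderated test, and that in KO_ST with no quantile normalization or the replicate block. Fabp3, the carrier with the highest level, stood at 123, 113 and 120 in CT, 142, 124 and 125 in WT_ST and 128, 144 and 127 in KO_ST. Its groups did not overlap against CT, with a fold of 1.11 in WT_ST and 1.12 in KO_ST (adjusted p = 0.635 and 0.501 from limma). The unadjusted p of limma was under 0.05 in both, and the folds were under the threshold. With edgeR and DESeq2 it was under 0.05 in KO_ST but not in WT_ST.

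The genes that supply diacylglycerol through Gq signalling, with the Homer scaffolds that tether Dagla near group I glutamate receptors, held 13 tested genes. Gna11, a G protein subunit with the highest level of the list, stood at an FPKM of 50.7 to 55.7 and showed no called difference. Homer1 was the only gene of this list called by limma, in KO_ST against WT_ST. Its FPKM was 27.8, 17.5 and 23.5 in CT, 28.8, 28.7 and 25.7 in WT_ST and 25.5, 17.9 and 21.5 in KO_ST. Homer1 was lower 1.27-fold in KO_ST against WT_ST (log2 -0.35, standard error 0.114, adjusted p = 0.801 from limma), and the CT mice overlapped both groups. On the read counts edgeR and DESeq2 also called it, with a smaller difference (log2 -0.29 in both). The limma call was lost without WT_ST replicate 2 or KO_ST replicate 2 (log2 -0.32 and -0.23), and with the unmoderated test or all 9 mice in the fit. These values cover the whole gene, and a change in the mix of its transcripts was not tested. Homer2, a related scaffold that like Pla2g4e and Plcb1 is named here after its values were seen, was called higher in KO_ST against WT_ST by edgeR (log2 0.68) but not by limma (log2 0.48, adjusted p = 0.868 from limma) or DESeq2 (0.69). Its FPKM was 2.53, 3.53 and 5.92 in CT, 2.87, 3.15 and 2.33 in WT_ST and 6.46, 3.76 and 3.10 in KO_ST, with overlapping groups. In that comparison 2 of 7 striatal markers were called, Rgs9 lower and Tac1 higher, and 1 of 4 microglia markers, P2ry12, was called lower, a call lost under the settings given above. The part of these in the level of Homer1 was not tested. Plcb1, a phospholipase C that forms diacylglycerol, was not called but was highest in KO_ST. Its FPKM was 45.3, 39.0 and 41.2 in CT, 42.7, 43.2 and 46.3 in WT_ST and 47.7, 47.2 and 49.4 in KO_ST, and the KO_ST mice lay above all others. The fold in KO_ST was 1.15 against CT (log2 0.20, adjusted p = 0.495 from limma) and 1.09 against WT_ST (log2 0.12, adjusted p = 0.830 from limma). The unadjusted p was under 0.05 with limma, edgeR and DESeq2 in both comparisons. Over the 4 lists together limma called 3 of 25 genes in WT_ST and 2 of 25 in KO_ST against CT, and 1 of 25 in KO_ST against WT_ST, beside the same shares of tested genes as above. None passed at an adjusted p under 0.05 with limma or edgeR, while 4, 4 and 3 of the 25 had an unadjusted p under 0.05 with limma. DESeq2 passed Fabp7 after adjustment in both comparisons with CT.

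**Figure D5:**
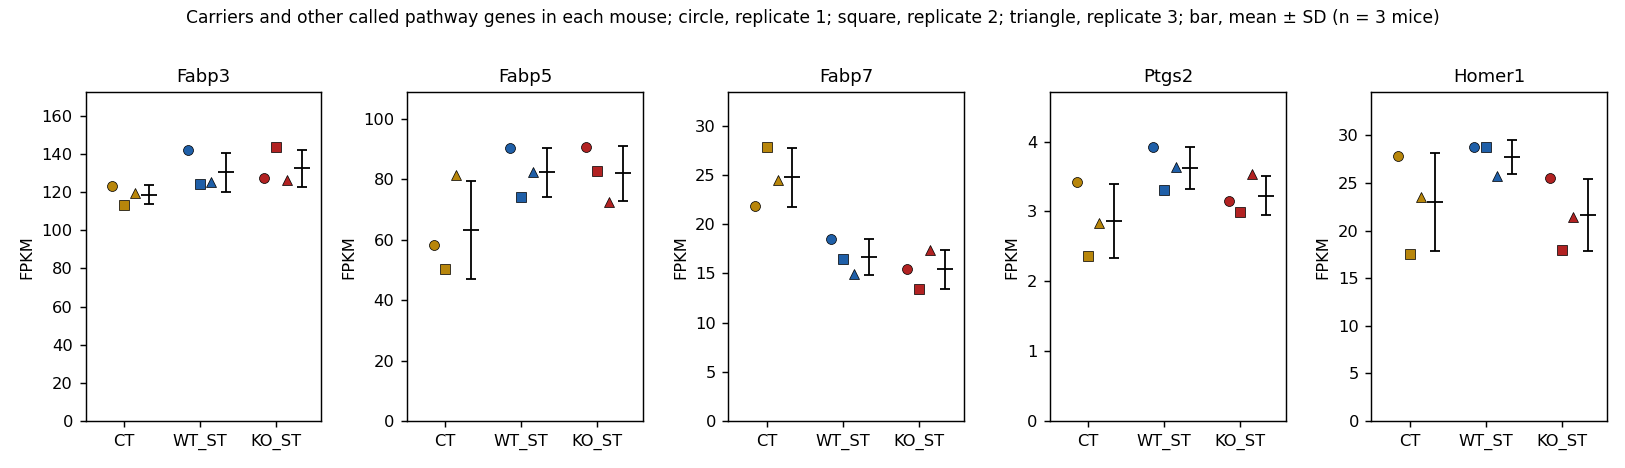
FPKM (vertical axes, from 0) of Fabp3, Fabp5, Fabp7, Ptgs2 and Homer1 in each mouse by group, with the mean and SD (n = 3). The Fabp7 points of the stressed groups, 13.4 to 18.6, all lie below those of CT, 21.9 to 27.8, and the other panels show overlap except for Fabp3 against CT and Homer1 between the stressed groups.

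For each of the other genes the 3 tested genes most like it over the 9 mice were listed, with r as above and n = 9 mice. The 9 values share library depth and the quantile scale, and the best of 14370 genes is high by selection, so r is a description. Cnr1 was most like Gla, Rai2 and Sh3bgrl2 (r = 0.97, 0.96 and 0.96). Dagla was most like Gatad2a, Iqsec1 and Acaa1b, all at 0.94, and Daglb like Gjb6 (0.95), Ankrd49 and Gpr12 (both 0.91). Napepld was most like H3f3b (0.94), Nasp (0.92) and Nufip1 (0.90). Faah was most like Tk2 (0.95), Eme2 (0.94) and Hbq1a (0.94), and Naaa like AW112010 (0.94), Mettl9 (0.94) and C230037L18Rik (0.93). Abhd6 was most like Zfp68, Slc12a7 and Cyb5r4, all at 0.96, and Abhd12 like Adm (0.95), Zbtb34 (0.94) and Acta1 (0.93). None of the 9 genes was among the 3 most like another of them. Of their own 36 pairs, 20 had r above 0, with a median of 0.03, from -0.85 for Faah with Napepld to 0.77 for Abhd6 with Abhd12.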

How the data were processed

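Libraries were prepared with a stranded poly(A) kit and sequenced as paired-end reads, 1 library per mouse. Per the labels, reads were aligned to mm10 (GRCm38) with HISAT2 2.1.0 and Bowtie2 2.3.4.1 and quantified with StringTie 1.3.4d. The authors deposited the read count of each gene without normalization, and the authors also deposited FPKM, scaled for transcript length and mapped reads. Whether counting used strand is not given in the sources used here.

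FPKM was taken as log2(FPKM + 1), quantile normalized over the 9 mice and tested with limma 3.58.1 in R 4.3.3 (moderated test with a mean-variance trend, 2 groups at a time), after leaving out genes that averaged fewer than 30 reads. A fold change is thus on the log2(value + 1) scale, which understates the change of low genes. The call (unadjusted p under 0.05 with fold above 1.2) follows the study's methods, except that limma replaced their gene-by-gene test. Unadjusted p-values are given as under or above that threshold. Alternatives were a pseudocount of 0.1, no quantile normalization, no filter, edgeR 4.0.16, DESeq2 1.42.0, an unmoderated test, all 9 mice in the fit, a replicate block and leaving out each mouse. The methods were tested on simulated counts. The 9 genes and the lists were chosen with earlier results of these data known. Of the marker lists, 2 genes are not reported here and were left out of the sums and counts. Named genes are the 9, Fkbp5, called or highest genes of the pathway lists, and the 3 genes most like each of the 9. Ccnd1, Pla2g4e, Homer2 and Plcb1 were added after their values were seen, and cell type markers, untested pathway genes and overlapping genes are named where a result touches them. Depth ranged from 43778471 to 61150128 reads. Each replicate is a separate mouse. Figures were drawn with matplotlib 3.10.9.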

Additional observations from a re-analysis of the deposited data

How the results depend on the processing

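Of 387 values of the 9 genes under the alternatives, 358 kept their direction and their side of the call, 12 lost a call (all of Naaa) and 17 changed sign. The number of the 9 genes called against CT fell from 1 to 0 in WT_ST with the unmoderated test and with all 9 mice in the fit, and in KO_ST with no filter on low reads, the unmoderated test and the replicate block. Leaving out 1 mouse gave 0 to 1 called genes against CT in either stressed group, 0 in KO_ST against WT_ST, and 0 to 1 at an F test p under 0.05, where DESeq2 gave 1. Those single genes were Abhd6 without CT replicate 1, Naaa without KO_ST replicate 3 and Naaa with DESeq2. The pathway genes called in WT_ST against CT numbered 3, 2 with no quantile normalization or edgeR, and 1 with no filter or the unmoderated test (1 to 4 with a mouse left out). In KO_ST against CT they numbered 2, and 1 with no quantile normalization, no filter, edgeR, the unmoderated test or the replicate block (1 to 3 with a mouse left out). In KO_ST against WT_ST they numbered 1, and 2 with a pseudocount of 0.1, DESeq2 or the replicate block, 3 with edgeR, and 0 with the unmoderated test or all 9 mice in the fit (0 to 2 with a mouse left out). The cause of these differences was not tested.

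The values that changed sign were small differences in log2 units, with the exception of Mgll and Naaa. In KO_ST against CT, Daglb was -0.0021 with no quantile normalization, and with a mouse left out Daglb lay between -0.0011 and 0.035 and Faah between -0.0049 and 0.053. In KO_ST against WT_ST, Abhd12 was 0.0014 with edgeR, 0.0053 with DESeq2 and 0.00053 without both mice with low Mgll, and lay between -0.046 and 0.0056 with 1 mouse left out. Naaa was 0.16 without both mice with low Mgll and lay between -0.20 and 0.13 with 1 mouse left out. With 1 mouse left out Dagla lay between -0.094 and 0.0298 and Mgll between -0.29 and 0.42, negative without WT_ST replicate 3, KO_ST replicate 1 or KO_ST replicate 3.

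Mice that share a replicate number did not deviate together. The correlation of their deviations from the group means was between -0.26 and 0.23, above 0.1 in 2 of 9 pairs, so mice were not paired by number in the main tests. With the replicate block the log2 difference of Naaa in KO_ST against CT stayed at -0.41, with an unadjusted p just above 0.05. With 3 mice in a group the spread between mice limits the precision for most of the 9 genes. For Daglb the coefficient of variation of 2.12% lay near a Poisson SD of 1.71% to 2.08%, with reads taken as independent. The same held for Faah within KO_ST (1.28% beside 1.17% to 1.27%). Where both reads of a pair were counted, the counting SD is larger than these values.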
